A study of Mus musculus with 4 samples.

Results

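The genes that encode dual-specificity phosphatases, Sprouty proteins and Spred proteins, the negative feedback arm of the ERK pathway, were followed in mouse CD4+ T cells with and without forced expression of Tox2, an HMG-box DNA-binding protein. The 10 genes taken were Dusp1, Dusp2, Dusp4, Dusp5, Dusp6, Dusp10, Spry1, Spry2, Spred1 and Spred2. They were chosen by symbol, and all 10 stood in the list of 11027 genes deposited for each library. The RNA-seq libraries came from wild type C57BL/6 mice, aged 7 to 8 weeks, whose spleens and lymph nodes gave the naive CD4+ T cells. These were activated in neutral medium and infected with the Tox2 retrovirus, which also encodes GFP (Tox2), or with the empty GFP retrovirus (GFP), and cells positive for GFP were sorted. They were then cultured in Th0 conditions, with antibodies against IFN-gamma, IL-4 and IL-2, or in Tfh-like conditions, with the same antibodies plus IL-6. IL-2, IL-4 and IFN-gamma were thus blocked in all 4 groups, and only IL-6 separated the cultures. Whether several animals were pooled for a library is not given in the sources used here. The study asked how Tox2 acts in the differentiation of T follicular helper (Tfh) cells.

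In T cells the antigen receptor activates Ras through RasGRP1 and SOS, and Ras drives the kinases Raf, MEK and ERK. Active ERK switches on genes for its own inhibitors. Dual-specificity phosphatases remove the activating phosphates from ERK, JNK or p38. Sprouty proteins act between the receptor and Raf, and Spred proteins bring the Ras inhibitor neurofibromin to the membrane. The transcripts of many of these inhibitors are short-lived, and their level is widely used as a readout of recent pathway activity, although ERK activity itself was not measured here.

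Of the 10 genes, Dusp1 and Dusp6 were the only ones that passed the test for the Tox2 virus, in opposite directions, so the bases before their transcription starts are shown. The sequences come from RefSeq (GRCm38.p6), which held such a window for 9 of the 10 genes. They run 5′ to 3′ and stop before any annotated exon. Capitals mark matches on either strand to 6 letter strings. The cAMP response element (CRE) was searched as TGACGTCA and its short form as TGACG, which any CRE also contains. The AP-1 motif was searched as TGANTCA, the ETS motif as CCGGAA, the E-box as CACGTG and the TATA box as TATAAA.
Dusp1, chr17:26508520-26508722, minus strand: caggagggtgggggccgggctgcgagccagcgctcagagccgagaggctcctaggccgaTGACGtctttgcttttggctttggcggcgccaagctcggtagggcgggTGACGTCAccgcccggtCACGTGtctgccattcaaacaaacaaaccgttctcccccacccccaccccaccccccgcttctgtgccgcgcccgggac
Dusp6, chr10:99262981-99263230, plus strand: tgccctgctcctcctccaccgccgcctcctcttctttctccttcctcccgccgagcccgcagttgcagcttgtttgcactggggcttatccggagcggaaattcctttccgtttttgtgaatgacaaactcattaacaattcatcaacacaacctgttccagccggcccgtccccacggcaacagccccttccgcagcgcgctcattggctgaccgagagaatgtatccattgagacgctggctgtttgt
The Dusp1 stretch of 203 bases held 1 CRE, 3 short forms, of which 2 lie on the 2 strands of that CRE, and 1 E-box. A CRE was present in 1.55% of the 32841 RefSeq windows of 250 bases before a start, a short form in 17.8%, an AP-1 motif in 6.75%, an ETS motif in 12.0%, an E-box in 6.02% and a TATA box in 12.4%. In the 250 bases of Dusp6 none of these letter strings was found. Members that did not pass for Tox2 also differed, with bases inside annotated exons included. The Dusp2 window held an E-box, and those of Dusp5 and Spred2 a short form. None of the strings was found for Dusp10, Spry1, Spry2 or Spred1. A relation between the strings and the Tox2 folds was not tested. A match is a run of letters and not a measured binding site.

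Each of the 4 groups is 1 library, with 13015283 to 13673774 counts in all. Differences between 2 libraries therefore have no replicate check, and the 95% intervals given for them cover counting error only. Tox2 itself had 144 and 851 counts in the GFP libraries (Th0 and Tfh-like) and 35297 and 32246 with the Tox2 virus, which follows the labels. All 10 CD4+ T-cell markers were listed, with a summed level of 5796 to 6209 CPM (counts scaled to the library size with TMM factors). Of 7 B-cell markers only Cd79a was listed (10 to 24 counts). Of 10 myeloid markers 3 were listed, with a summed 8.27 to 14.3 CPM and without Lyz2 or Csf1r, and of 5 CD8 or NK markers only Cd8b1. The part of these other cells in the results was not tested. Fewer transcripts per cell and fewer cells of a kind cannot be told apart in such bulk libraries.

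The 10 genes ranged widely in level. By level per gene length and sequencing depth (FPKM, as deposited), Dusp4 and Dusp2 were the highest members in every library. Dusp4 led among the GFP libraries (101 against 90.4 FPKM for Dusp2 in Th0, 72.3 against 56.6 in Tfh-like) and in the Th0 library with Tox2 (144 against 90.6). In Tfh-like with Tox2 the order turned, with Dusp2 at 69.6 and Dusp4 at 61.3 FPKM. Their counting intervals did not overlap in any library. Spry2 and Spred1 were the lowest pair throughout, at 3.41 to 9.14 and 4.64 to 5.42 FPKM, and their counting intervals overlapped in the Th0 GFP library and the Tfh-like Tox2 library.

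Between these ends the order depended on the library. In Th0 with GFP it ran Spry1 (44.6), Dusp6 (39.7), Dusp5 (34.1), Dusp1 (13.4), Spred2 (11.3) and Dusp10 (8.83 FPKM), with no overlap between neighbours. In Tfh-like with Tox2 Spred2 (21.5) came after the leading pair, followed by Spry1 (16.1), Dusp1 (13.8), Dusp6 (12.8), Dusp10 (8.43) and Dusp5 (8.30 FPKM). There Dusp1 and Dusp6 overlapped, and so did Dusp10 and Dusp5. The summed FPKM of all 10 was 353 (Th0) and 228 (Tfh-like) with GFP, and 425 and 221 with Tox2. The nuclear phosphatases Dusp1, Dusp2, Dusp4 and Dusp5 made 67.6%, 63.6%, 76.9% and 69.2% of it in the same order. The share of the Spred genes was 4.73% and 4.66% in the Th0 libraries and 10.3% and 11.9% in the Tfh-like libraries. Their summed FPKM was 16.7 (Th0) and 23.5 (Tfh-like) with GFP, and 19.8 and 26.3 with Tox2. Spred1 alone was at 5.42 and 4.64 FPKM with GFP, and at 4.95 and 4.82 with Tox2.

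**Figure D1:**
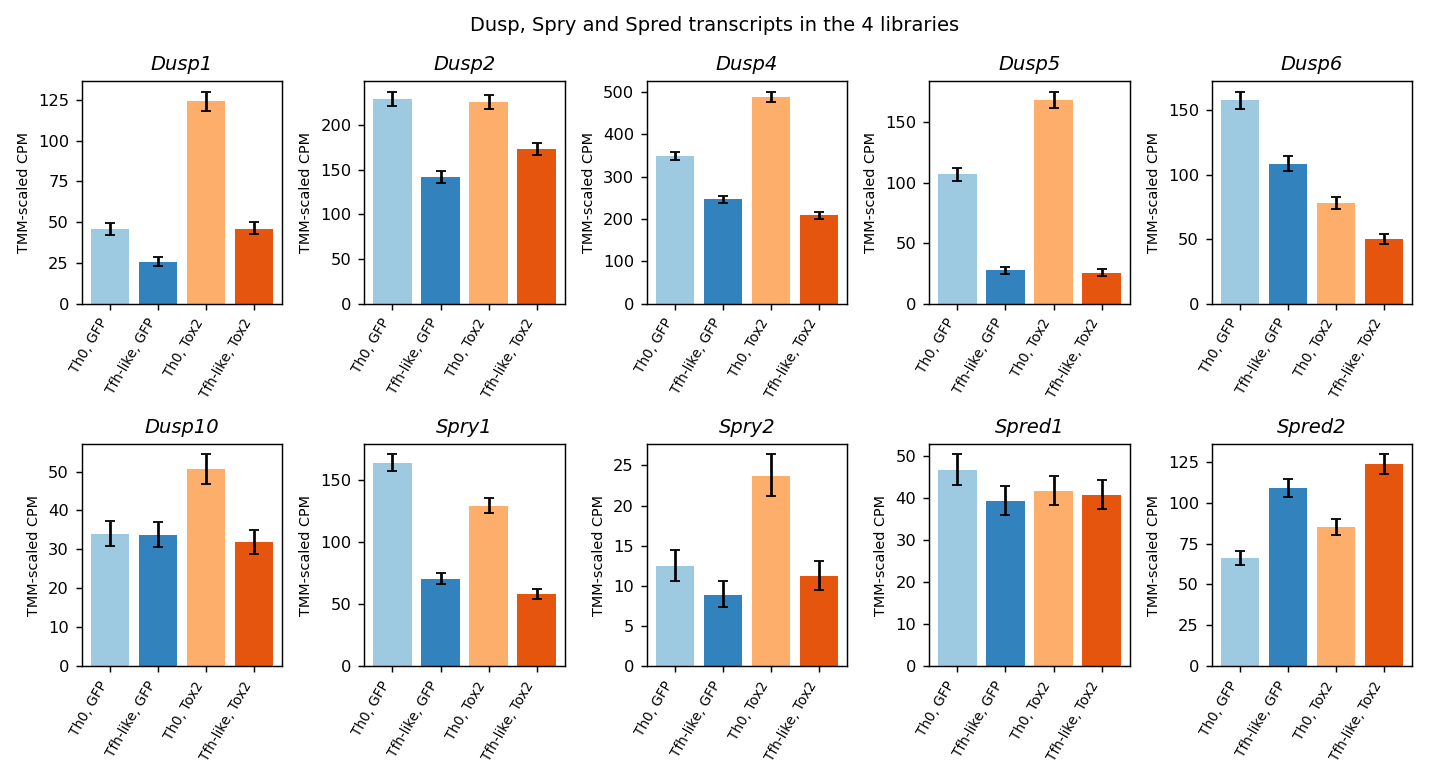
Level of each of the 10 genes (TMM-scaled CPM, linear axes starting at 0) in the 4 libraries; bars are single libraries and error bars the exact Poisson 95% interval of the count. Dusp5 stands at 107 and 168 CPM in the Th0 libraries and at 27.4 and 25.5 CPM in the Tfh-like libraries, while Dusp6 is higher in both GFP libraries than in either Tox2 library.

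The first comparison was of the Tox2 virus with the GFP virus. Over both cultures Dusp1 rose and Dusp6 fell, and the other 8 genes did not pass. The test was edgeR's quasi-likelihood test of an additive model (culture plus virus), in which 6.81% of the 10960 genes compared passed, 4.07% higher and 2.74% lower. Its 1 residual degree of freedom is how far the Tox2 folds of the cultures differ, so its p-values measure no spread between replicates. The median log2 fold of the 10 genes was 0.19, against 0.00 for all genes. At an unadjusted p under 0.05 stood 5 of the 10, and 3003 of all genes.

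The second comparison was of the Tfh-like with the Th0 culture. Over both viruses 7 of the 10 genes fell (Dusp1, Dusp2, Dusp4, Dusp5, Dusp6, Spry1 and Spry2) and 1 rose (Spred2), where 9.96% of all genes compared fell and 14.3% rose in the same model (24.2% in all). Dusp10 and Spred1 did not pass. The median log2 fold of the 10 was -0.70, against -0.01 for all genes. For 9 of the 10 the fold was below 0 with GFP and with Tox2 alike, as for 38.6% of all genes. Dusp10 is counted among the 9 with a GFP fold of -0.01 (interval -0.20 to 0.18), which was 0.01 with the library scaling read from the deposited FPKM. The comparisons with Tox2 and with the culture use the same 4 libraries, so their values stand side by side as descriptions of one set of data.

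Among the nuclear phosphatases, Dusp1 (MKP-1; chromosome 17, 26505590 to 26562128, minus strand, GRCm38) dephosphorylates p38, JNK and ERK. These GENCODE coordinates include a longer transcript model that starts farther upstream, so the sequence shown above, which precedes the RefSeq start, lies within them. Its GFP libraries held 45.8 (Th0) and 25.5 CPM (Tfh-like), and its Tox2 libraries 124 and 46.0 CPM. The Tox2 library was thus the higher one in both cultures, and Tfh-like with Tox2 was at the level of Th0 with GFP. Dusp1 was 2.71-fold higher with Tox2 in Th0 (log2 1.44, interval 1.31 to 1.57) and 1.80-fold higher in Tfh-like (0.85, 0.66 to 1.05). Over both cultures it rose by 1.16 on the log2 scale (SE 0.15, edgeR adjusted p = 0.0131). With the culture it fell by 1.15 (SE 0.15, edgeR adjusted p = 0.00343), with log2 folds of -0.84 with GFP and -1.43 with Tox2.

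Dusp5, a nuclear phosphatase specific for ERK (chromosome 19, 53529109 to 53542431, plus strand), had the widest range of the 10 genes. Its GFP libraries held 107 (Th0) and 27.4 CPM (Tfh-like), and its Tox2 libraries 168 and 25.5 CPM. Both Th0 libraries lay far above both Tfh-like libraries. Dusp5 was 3.88-fold lower in Tfh-like with GFP (log2 -1.96, interval -2.13 to -1.79) and 6.57-fold lower with Tox2 (-2.72, -2.89 to -2.56). It fell by 2.34 over both viruses (SE 0.19, edgeR adjusted p = 0.000554). With the Tox2 virus it was higher in Th0 (0.65, 0.56 to 0.75) but not in Tfh-like (-0.11, -0.32 to 0.11), and it did not pass (0.32, SE 0.18, edgeR adjusted p = 0.313). Antisense RNA overlaps 22.1% of its exon bases in GENCODE M21, and without a stated strand setting its reads cannot be told from those of Dusp5.

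Dusp4 (MKP-2; chromosome 8, 34807297 to 34819894, plus strand), a nuclear phosphatase of ERK and JNK, had its highest level in Th0 with Tox2 and its lowest in Tfh-like with Tox2. Its levels were 349 CPM (Th0) and 247 CPM (Tfh-like) with GFP, and 489.6 and 208 CPM with Tox2. Tox2 libraries thus had the higher value in Th0 (log2 0.49, interval 0.43 to 0.54) and the lower in Tfh-like (-0.24, -0.32 to -0.17). Dusp4 fell with the culture, with a log2 fold of -0.87 (SE 0.17, edgeR adjusted p = 0.0150), with -0.50 for GFP and -1.23 for Tox2. Over both cultures its Tox2 fold was 0.12 (SE 0.17) and did not pass.

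Dusp2 (PAC-1; chromosome 2, 127336159 to 127338376, plus strand) is a phosphatase typical of activated lymphocytes. Its levels were 229 CPM (Th0) and 142 CPM (Tfh-like) with GFP, and 225 and 173 CPM with Tox2. The Th0 libraries were within counting error of each other (log2 -0.02, interval -0.10 to 0.05), while in Tfh-like the Tox2 library was higher by 0.29 (0.20 to 0.38). Dusp2 fell with the culture, with a log2 fold of -0.54 (SE 0.12, edgeR adjusted p = 0.0187).

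Dusp6 (MKP-3; chromosome 10, 99263231 to 99267489, plus strand) is the cytoplasmic phosphatase that is selective for ERK. Its GFP libraries held 157 (Th0) and 108 CPM (Tfh-like), and its Tox2 libraries 78.2 and 49.8 CPM. Both Tox2 libraries lay below both GFP libraries. Dusp6 was 2.01-fold lower with Tox2 in Th0 (log2 -1.01, interval -1.12 to -0.90) and 2.17-fold lower in Tfh-like (-1.12, -1.26 to -0.99). It fell by 1.06 over both cultures (SE 0.10, edgeR adjusted p = 0.00557). With the culture it fell by 0.59 (SE 0.10, edgeR adjusted p = 0.00927), with log2 folds of -0.54 with GFP and -0.65 with Tox2. Of the 10 genes it was the only one that passed for both factors in the same direction.

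Dusp10 (MKP-5; chromosome 1, 184013302 to 184075636, plus strand) acts on JNK and p38 rather than ERK. Its GFP libraries held 34.0 (Th0) and 33.8 CPM (Tfh-like), and its Tox2 libraries 50.5 and 31.8 CPM. Th0 with Tox2 was the library that stood apart, with a log2 fold of 0.57 (interval 0.40 to 0.74) over its GFP library. Dusp10 passed neither test (Tox2 0.25, SE 0.17, and culture -0.34, SE 0.17).

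**Figure D2:**
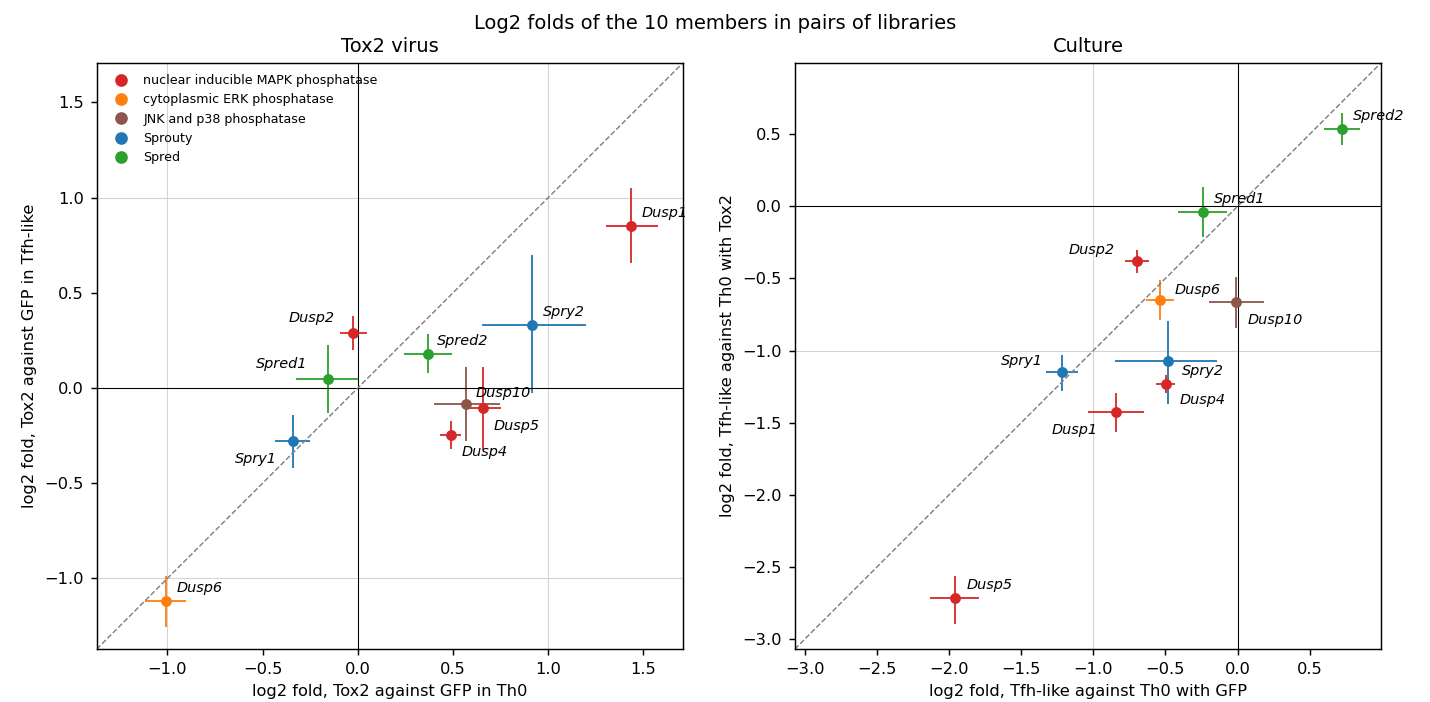
Log2 folds of the 10 genes with the Tox2 virus (left) and with the culture (right). The left axes are Th0 (horizontal) and Tfh-like (vertical), and the right axes GFP (horizontal) and Tox2 (vertical). Colours mark the role: nuclear phosphatase, cytoplasmic ERK phosphatase, JNK and p38 phosphatase, Sprouty or Spred. Error bars are 95% counting intervals, and the dashed line marks equal folds. Dusp6 lies near the dashed line at -1.01 and -1.12 on the left, Dusp4, Dusp5 and Dusp10 lie right of 0 and below it, and on the right Spred2 is the only gene above 0 on both axes.

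Of the Sprouty genes, Spry1 (chromosome 3, 37639947 to 37644598, plus strand) was the more abundant. Its levels were 164 CPM (Th0) and 70.5 CPM (Tfh-like) with GFP, and 129 and 58.1 CPM with Tox2. Both Th0 libraries lay above both Tfh-like libraries, 2.32-fold with GFP (log2 -1.22, interval -1.33 to -1.11) and 2.22-fold with Tox2 (-1.15, -1.28 to -1.03). Spry1 fell with the culture, with a log2 fold of -1.19 (SE 0.10, edgeR adjusted p = 0.000733). Its Tox2 folds were -0.34 (Th0) and -0.28 (Tfh-like), and it did not pass (-0.31, SE 0.10, edgeR adjusted p = 0.115). An uncharacterised transcript on the other strand overlaps 24.4% of its exon bases, so its counts carry the same uncertainty as those of Dusp5.

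Spry2 (chromosome 14, 105891947 to 105896819, minus strand) was the member with the fewest counts, 116 to 329. It stood at 12.5 CPM (Th0) and 8.88 CPM (Tfh-like) with GFP, and at 23.7 and 11.2 CPM with Tox2. Th0 with Tox2 was again the highest library, 1.88-fold above its GFP library (log2 0.91, interval 0.65 to 1.20), while in Tfh-like the interval of the fold included 0 (0.33, -0.02 to 0.70). With Tox2 it did not pass (0.65, SE 0.20, edgeR adjusted p = 0.105). With the culture it fell by 0.80 (SE 0.20, edgeR adjusted p = 0.0328), a call that DESeq2 did not make (adjusted p = 0.115).

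Spred2 (chromosome 11, 19924375 to 20024026, plus strand) was the 1 member that rose with the culture. Its levels were 65.9 CPM (Th0) and 109 CPM (Tfh-like) with GFP, and 85.1 and 123 CPM with Tox2. Both Tfh-like libraries lay above both Th0 libraries, by 0.72 with GFP (interval 0.60 to 0.85) and 0.54 with Tox2 (0.43 to 0.64) on the log2 scale. Spred2 rose with the culture by 0.63 (SE 0.11, edgeR adjusted p = 0.00842). Its Tox2 folds were 0.37 (0.24 to 0.50) and 0.18 (0.08 to 0.28), and it did not pass for the virus (0.27, SE 0.11, edgeR adjusted p = 0.164).

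Spred1 (chromosome 2, 117121374 to 117182279, plus strand) had the narrowest range, with 46.5 and 39.3 CPM in Th0 and Tfh-like with GFP and 41.7 and 40.6 with Tox2. Its highest and lowest libraries were 1.18-fold apart. It passed neither test, with -0.06 (SE 0.11) for Tox2 and -0.14 (SE 0.11) for the culture.

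Single pairs were also described without a test: a gene was called when it was 2-fold apart and its counting interval excluded 0. By this rule 2 of the 10 genes were called with Tox2 in Th0, and 1 was called in Tfh-like. In Th0 these were Dusp1, higher, and Dusp6, lower, where 4.74% of all genes were called (3.18% higher and 1.56% lower). In Tfh-like it was Dusp6, where 4.75% were called (2.86% higher and 1.9% lower). Dusp6 was at the threshold in Th0: with the library scaling read from the deposited FPKM its log2 fold there was -0.98. With the culture 2 were called with GFP (Dusp5 and Spry1) and 5 with Tox2 (Dusp1, Dusp4, Dusp5, Spry1 and Spry2), all lower. Of all genes 10.9% were called with GFP (7.78% higher and 3.11% lower) and 9.43% with Tox2 (6.56% higher and 2.86% lower).

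The Tox2 fold was lower in Tfh-like than in Th0 for 6 genes whose interval of the difference excluded 0, and higher for 1. These 6 were Dusp5 (-0.76 on the log2 scale, interval -0.99 to -0.53), Dusp4 (-0.73, -0.82 to -0.64), Dusp10 (-0.66, -0.91 to -0.40), Dusp1 (-0.59, -0.82 to -0.35), Spry2 (-0.58, -1.02 to -0.14) and Spred2 (-0.19, -0.35 to -0.03). Dusp2 went the other way (0.31, 0.20 to 0.43), and for Dusp6, Spry1 and Spred1 the interval included 0. By the same rule 20.7% of all genes were lower and 15.9% higher in Tfh-like (36.6% in all). By 2-fold or more, 0 members and 3.48% of all genes differed (1.56% higher and 1.92% lower in Tfh-like), and no degree of freedom is left for a test. Dusp4 was the 1 member with folds of opposite sign whose intervals both excluded 0, as were 4.51% of all genes, 2.96% being higher in Th0 and lower in Tfh-like as Dusp4 was. All 3 listed myeloid markers (median log2 difference 1.31) and Cd8b1 had a higher Tox2 fold in Tfh-like than in Th0. Of these, Itgam and Cd8b1 were named after their values were seen. For the B-cell marker Cd79a the difference was 0.03. The myeloid marker Cd68 had 99 (Th0) and 91 counts (Tfh-like) with GFP and 149 and 159 with Tox2. For Cd14 the counts were 20 and 11 with GFP and 9 and 14 with Tox2. The myeloid marker Itgam had 19 (Th0) and 6 counts (Tfh-like) with GFP and 16 and 19 with Tox2, and its difference was 1.63 (interval 0.04 to 3.22). The GFP libraries held 135 (Th0) and 138 (Tfh-like) counts of the CD8 marker Cd8b1 and the Tox2 libraries 127 and 206, and its difference was 0.67 (0.20 to 1.14). Their part in the members' differences was not tested.

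Of 14 further Dusp, Spry and Spred genes compared, 4 rose and 1 fell with the culture. Among all genes compared, 14.3% rose and 9.96% fell with the culture, and 4.07% rose and 2.74% fell with Tox2. Spred3 rose by 1.31 (SE 0.24) and Dusp16, which like Dusp10 acts on JNK and p38, by 1.02 (SE 0.17). Dusp9 and Dusp14 rose too and Spry4 fell by 1.25 (SE 0.36), none of them with DESeq2. Spry4 had only 15 to 49 counts. With Tox2, 1 of the 14 rose: Dusp9, an ERK phosphatase close to Dusp6 in sequence, had 30 and 66 counts in Th0 and Tfh-like with GFP and 98 and 152 with Tox2 (log2 1.38, SE 0.25, edgeR adjusted p = 0.0294, with DESeq2 0.0830). Dusp12, a phosphatase with 36 to 69 counts, passed neither test, and its Tox2 fold was higher in Tfh-like than in Th0 by 1.09 (interval 0.30 to 1.87). The medians of the 14 were 0.29 for the culture and 0.03 for Tox2.

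Of 33 genes of the Ras-ERK cascade, 3 rose and 1 fell with Tox2 (median 0.07), and 7 rose and 5 fell with the culture (median 0.11). The shares of all genes were 4.07% higher and 2.74% lower with Tox2, and 14.3% higher and 9.96% lower with the culture. Rasgrp1, the activator that couples the T-cell receptor to Ras, stood at 155 and 89.6 CPM in Th0 and Tfh-like with GFP and at 241 and 141 with Tox2. It rose with Tox2 by 0.64 (SE 0.10, edgeR adjusted p = 0.0193) and fell with the culture, with a log2 fold of -0.78 (SE 0.10). The Ras inhibitor genes Rasa3 and Nf1, the latter encoding neurofibromin, rose with Tox2 by 0.64 (SE 0.14) and 0.55 (SE 0.11), and Hras fell by 0.62 (SE 0.11). With the length trend of each library removed neither Rasa3 nor Nf1 passed (edgeR adjusted p = 0.0786 and 0.110). Nf1 also missed the threshold with DESeq2 (adjusted p = 0.178), and Rasa3 with a minimum of 5 CPM (edgeR adjusted p = 0.0536) and with TMM factors from the filtered genes (0.0547). With the culture, the scaffold Ksr1 rose by 1.58 (SE 0.11) and the Ras relative Rras2 by 1.32 (SE 0.15), and the Ras inhibitor Rasal1 fell by 1.76 (SE 0.21). Rasgrp4 and Rasgrp2 also passed with the culture, by 0.96 and -1.02, but not with DESeq2. Mapk3, which encodes an ERK kinase, did not pass with Tox2 (0.06, SE 0.11) and rose with the culture by 0.70 (SE 0.11).

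Of 20 genes of the JNK and p38 cascade, 0 rose and 1 fell with Tox2 (median 0.02), and 6 rose and 2 fell with the culture (median 0.09). Over all genes 4.07% rose and 2.74% fell with Tox2, and 14.3% rose and 9.96% fell with the culture. Mapk11, encoding p38 beta, fell with Tox2, with a log2 fold of -0.77 (SE 0.12). Gadd45g, an activator of these kinases, rose with the culture by 2.41 (SE 0.11), as did Map2k6 (1.22, SE 0.29, lost with limma-voom) and Map3k5 (0.89, SE 0.14). The kinase genes Map2k3 and Map3k7 fell, with log2 folds of -0.47 (SE 0.10) and -0.43 (SE 0.10), the latter not with DESeq2. The Tox2 fold of Map2k6 was lower in Tfh-like than in Th0, with a log2 difference of -1.29 (interval -1.63 to -0.94). Gadd45a and Gadd45b were over 2-fold higher with Tox2 in Tfh-like (1.14 and 1.15), and neither passed over both cultures.

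A list of 29 compared activation genes and genes linked to ERK signalling moved in both directions. With the culture 12 fell and 8 rose (median -0.47), and with Tox2 4 fell and 2 rose (median -0.20). Among all genes 9.96% fell and 14.3% rose with the culture, and 2.74% fell and 4.07% rose with Tox2. The largest decreases with the culture were of the orphan receptor genes Nr4a3 (-2.11, SE 0.16) and Nr4a1 (-1.67, SE 0.12) and of Bcl2l11, encoding the death factor BIM (-1.59, SE 0.13). Ier3 (2.64, SE 0.15) and the AP-1 genes Jun (1.77, SE 0.14) and Fosl2 (1.76, SE 0.22) rose.

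The ETS factors Etv4 and Etv5 are transcribed downstream of ERK in many tissues, as Dusp6 is. Etv4 stood at 28.4 and 19.6 CPM in Th0 and Tfh-like with GFP and at 14.0 and 7.55 with Tox2, so both Tox2 libraries lay below both GFP libraries, as for Dusp6. Etv4 fell with Tox2, with a log2 fold of -1.18 (SE 0.17, edgeR adjusted p = 0.0158) and with the culture it had -0.70 (SE 0.17, edgeR adjusted p = 0.0271, with DESeq2 0.121). Etv5 stood at 20.5 and 7.81 CPM with GFP and 14.5 and 6.50 with Tox2. It fell with the culture, with a log2 fold of -1.28 (SE 0.18) and did not pass with Tox2 (-0.39, SE 0.18).

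The remaining genes of this list that passed with the virus went both ways. Nr4a2 rose with Tox2 by 0.79 (SE 0.11) and Nr4a1 by 0.63 (SE 0.12), both with adjusted p below the threshold (0.0158 and 0.0305, edgeR). Plk3, Plaur and Ier2 fell, with log2 folds of -0.83 (SE 0.13), -1.82 (SE 0.39) and -0.53 (SE 0.12). Plaur had 8 to 40 counts, and neither it nor Plk3 passed with DESeq2 (adjusted p = 0.361 and 0.0562); Ier2 did not pass with the length trend removed (edgeR adjusted p = 0.0732). The early growth response genes Egr1 and Egr3 fell with the culture, with log2 folds of -0.66 (SE 0.15) and -1.39 (SE 0.15), and had Tox2 folds of 0.39 and 0.08 that did not pass. Their relative Egr2 went the other way with the culture, by 0.48 (SE 0.14, edgeR adjusted p = 0.0498), a call at the threshold that was lost with DESeq2 (adjusted p = 0.0746) and without the filter on low counts (edgeR adjusted p = 0.0505).

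**Figure D3:**
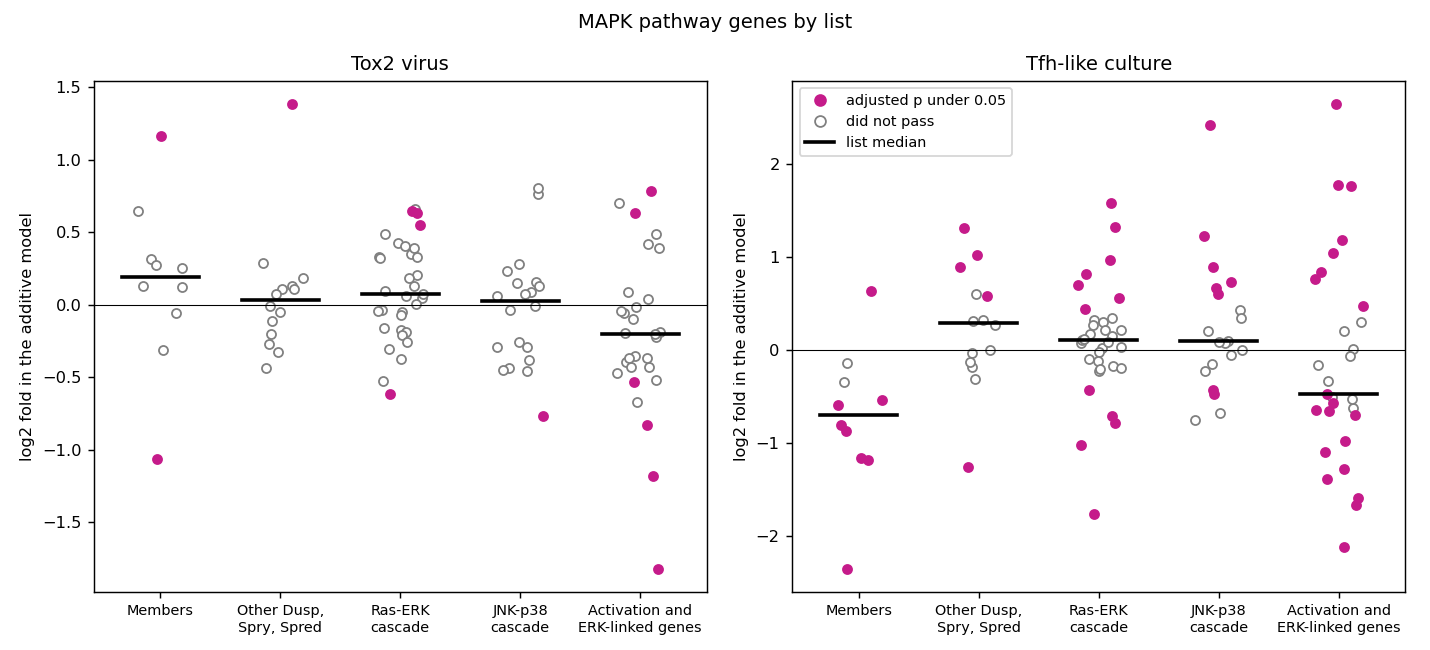
Log2 folds in the additive model for the 10 members and 4 lists of pathway genes, for the Tox2 virus (left) and the Tfh-like culture (right); each point is a gene, filled points had an adjusted p under 0.05 (edgeR) and black lines are list medians. The member median is 0.19 for the virus and -0.70 for the culture, and 7 of the 10 members are filled points below 0 on the right.

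For the 6 members whose levels spanned at least 2-fold over the libraries, the distance between log2 levels centred over the 4 libraries was taken against 9636 genes with a mean CPM of at least 5. The measure rests on 4 values per gene, so near matches are common. Nearest to Dusp6 were Srm (distance 0.07), Ptger4 (0.14) and Cd200 (0.18). Nearest to Spry1 were Etv5 (0.13), Fam111a (0.14) and Bid (0.15), and nearest to Dusp5 were Nr4a3 (0.27), Plpp1 (0.32) and Nid1 (0.34). Dusp4 had Mdn1 (0.12) and Ccr7 (0.17) among its nearest, Dusp1 had Igsf23 (0.18), Lmo4 (0.23) and Magi3 (0.26), and Spry2 had Colq (0.07), Slc23a2 (0.11) and Rab11fip2 (0.14). Among the members the closest pair was Dusp2 and Spred1 (0.44), followed by Dusp4 and Spry2 (0.51). The distance is not scaled to the range of a gene, so genes that vary little lie close together. Spred1 spanned 1.18-fold and Dusp2 1.62-fold over the libraries. The outside genes named are the nearest of 9636, so their distances cannot be set against those between members. Dusp2 and Spred1 spanned less than 2-fold and were not searched against outside genes.

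**Figure D4:**
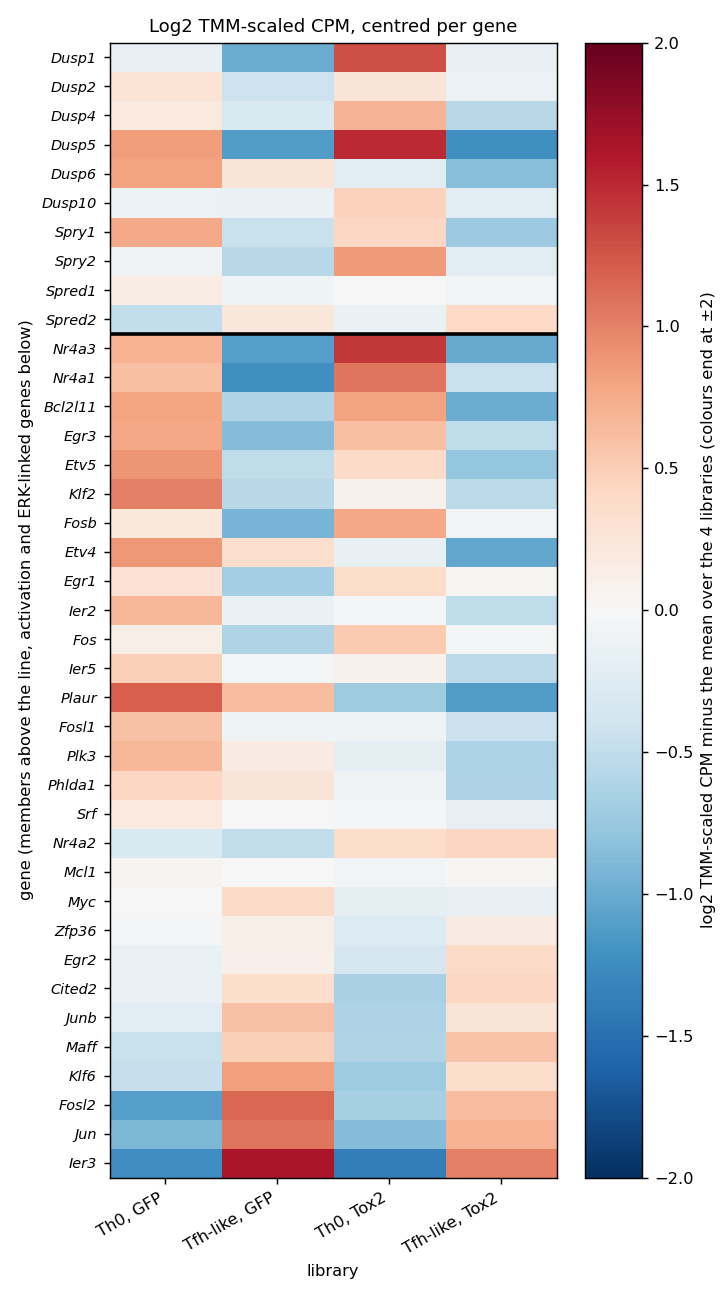
Log2 TMM-scaled CPM of the 10 members (above the line) and 29 activation and ERK-linked genes (below it, ordered by culture fold) in the 4 libraries, each gene centred on its mean; red is higher and blue lower. Dusp5 and Nr4a3 are red in both Th0 libraries and blue in both Tfh-like libraries, and Dusp6 and Etv4 are red in the GFP libraries and blue in the Tox2 libraries.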

How the data were processed

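The authors deposited, for each of 4 libraries, whole-number read counts per gene that were not normalized, per the file headers and the values, and FPKM that, per the file headers, were computed by the authors. In the submitters' processing notes stand the build mm10 and, among other tools, Trim Galore 0.4.4, featureCounts and Bowtie2. The annotation, and whether strand was counted, is not given in the sources used here. The deposited list was already reduced: its lowest sum of counts was 24. Counts were scaled by TMM (edgeR 4.0.16, R 4.3.3), and of the 11027 genes the 10960 that reached 1 CPM in any library were compared. Pair folds are log2 ratios of scaled CPM with a prior count of 2 and an exact conditional binomial 95% interval, and the difference of Tox2 folds has a delta-method interval. The additive model was fitted to all 4 libraries with edgeR's quasi-likelihood test, Benjamini-Hochberg adjusted over all genes compared (threshold 0.05); an SE is the fold divided by the square root of its F statistic. "Rose" and "fell" refer to this test. From each list the 3 highest and 3 lowest passing genes and the 2 largest in each pair are named, apart from results not reported here; Dusp14, Mapk3, Egr1, Egr2, Egr3, Etv5, Ier2, Itgam and Cd8b1 were named after their values were seen. The 10 genes and all lists were chosen with earlier results of these data known. The procedure was run on simulated counts with a Tox2 effect that was equal in both cultures and with no culture effect. It therefore does not show how the test behaves where the Tox2 folds of the cultures differ. Coordinates are from GENCODE M21 (GRCm38, the build called mm10). Alternatives used DESeq2 1.42.0 and limma 3.58.1.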

Additional observations from a re-analysis of the deposited data

Results flagged for a closer look

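Dusp4 went in opposite directions with the Tox2 virus in the cultures, with both counting intervals away from 0: the log2 values were 0.49 (Th0) and -0.24 (Tfh-like), a difference of -0.73. The difference was not tested, since each culture holds 1 library per virus. By the same criterion 4.51% of all genes compared went in opposite directions, and 2.96% were higher in Th0 and lower in Tfh-like.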

How the results depend on the processing

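No paired analysis was possible because each group holds 1 library, and none could be left out, since the additive model then has no residual degree of freedom. Dusp1 and Dusp6 passed for Tox2, and 7 of the 8 members passing for the culture passed, in all 8 alternatives of the additive test; Spry2 was the exception (DESeq2). The range was 1.14 to 1.22 for Dusp1 and -1.08 to -1.02 for Dusp6 with Tox2. DESeq2 called fewer genes in all: 492 for Tox2 (191 lower) and 1609 for the culture (551 lower), where edgeR called 746 (300 lower) and 2656 (1092 lower). With each library's trend with gene length removed, 421 genes passed for Tox2 (244 higher and 177 lower); across genes, the Th0 fold with Tox2 ran with length, and genes are not independent replicates (Spearman rho 0.301). In that alternative the members called in Th0 were Dusp1 and Spry2 (1.03), with Dusp6 at -0.94, and the folds of Dusp2 and Dusp4 in Th0 were 0.10 and 0.57. With the scaling read from the deposited FPKM, 1 member and not 2 was 2-fold apart in Th0, since Dusp6 was at -0.98. TMM factors from the filtered genes alone were tried after seeing the data and changed no call of a member. No member reversed direction in these alternatives of the additive test; of the pair folds near 0, Dusp2 with Tox2 in Th0 and Dusp10 with the culture and GFP turned from below to above 0 with the scaling read from FPKM, and Dusp2 also with the length trend removed. Counts of 116 to 6801 per member set the width of the intervals; the spread between animals or cultures is not measured.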
